A study of Mus musculus with 3 samples.

Results

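The sorting-gate genes are the 5 genes whose proteins defined the hematopoietic stem cells (HSCs) of this study by flow cytometry. *Slamf1* (CD150), *Kit* (c-Kit) and *Ly6a* (Sca-1) encode proteins that a cell had to carry, whereas *Cd48* and *Cd34* encode proteins whose carriers were left out. They were chosen because the gate names their proteins, and they are 5 of the 21755 protein-coding genes annotated on chromosomes 1 to 19 and X. The chromatin of these genes was read in 1 preparation of long-term HSCs from the bone marrow of 8-week-old wild-type female C57BL/6J mice, the number of which the sources do not give. Marrow cells were first enriched on c-Kit beads and then sorted as lineage-negative, Sca-1+, c-Kit+ cells that were CD150+, CD48− and CD34−. The cells were profiled by DOGMA-seq, which reads open chromatin (ATAC), RNA and antibody tags from the same cells. The ATAC library had no replicate, so p-values are not given, and every interval below is a 95% interval that covers counting error only. The question followed here is how far the chromatin of genes for proteins present on these cells differed from that of genes for proteins absent from them.

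CD150 and CD48 are members of the SLAM family of receptors, which bind one another between blood cells. CD150 is kept on HSCs, whereas CD48 appears on most of their progeny. c-Kit is the receptor for stem cell factor, on which HSCs depend, and Sca-1 is a small lipid-anchored protein of the Ly6 family that marks stem and early progenitor cells in this mouse strain. CD34 is a sialomucin that adult mouse HSCs lack and multipotent progenitors gain. The gate therefore acts on the protein at the cell surface, which need not follow the state of the chromatin.

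The library held 605049 barcodes, of which 3757 were called as cells and 3108 passed a filter of more than 3000 fragments in peaks. The passing cells carried 37137164 unique fragments on chromosomes 1 to 19 and X, with a median of 11442 per cell and a range from 3970 to 194134. Each fragment has 2 ends, and each end is a cut site of the transposase that enters open DNA. A promoter was taken as 500 bp either side of the start of the principal transcript in GENCODE vM21, on the GRCm38 (mm10) build. A promoter or a 500-bp bin was counted as open where at least 2% of the passing cells had a cut site in it, which for a bin meant at least 63 cells. This level was met by 102537 of 5267565 bins (1.95%) and by 13587 of 21755 promoters (62.5%). At this depth a cell without a cut site cannot be read as a cell with a closed site, and shares of cells serve to rank places rather than to count open cells.

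The label of the cells was checked against marker genes. All 8 promoters of the HSC marker list were open, from 6.02% of cells at *Procr* to 39.99% at *Hlf*, with a median of 19.6%. None of the 3 neutrophil, 3 B cell, 3 T cell or 2 macrophage marker promoters was open, and the highest of these was *Csf1r* at 1.64%. The 3 megakaryocyte promoters, *Pf4*, *Gp1ba* and *Itga2b*, lay between 19.3% and 24.8%, and the erythroid promoters of *Klf1* and *Epor* were at 2.74% and 3.83%. *Flt3*, a receptor of lymphoid-primed progenitors, was cut in 20.3% of cells, while *Dntt* and *Il7r* of the same list were each cut in 0.322%. Of the endothelial genes, *Kdr* was at 9.52% and *Cdh5* at 1.19%, and of the stromal genes, *Cxcl12* was at 5.12% and *Lepr* at 0.772%. The promoters of *Actb*, *B2m*, *Hprt* and *Gapdh*, set as open controls, ranged from 13.6% to 49.5%. Of the closed controls, *Alb*, *Ins2* and *Myod1* stayed at or under 0.515%, while *Neurod1* reached 2.99%.

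The promoters of the sorting-gate genes did not fall into order by the gate. Of the 5 promoters, 3 were open, namely those of *Kit*, *Cd34* and *Slamf1*, against 62.5% of all promoters. These were 2 of 3 positive-gate genes and 1 of 2 excluded genes. *Kit* had a cut site in 843 of 3108 cells, or 27.1% (25.6 to 28.7%), and stood at the 77.8th percentile of all promoters. *Cd34*, an excluded gene, came next with 198 cells, or 6.37% (5.54 to 7.29%), close to the median promoter at 6.98%. *Slamf1* had 103 cells, or 3.31% (2.71 to 4.01%), at the 41.3rd percentile. *Cd48* had 49 cells, or 1.58% (1.17 to 2.08%), and *Ly6a*, a positive-gate gene, had 37 cells, or 1.19% (0.840 to 1.64%). The intervals of *Kit*, *Cd34*, *Slamf1* and *Cd48* did not overlap one another, whereas those of *Cd48* and *Ly6a* did. All 5 members lay below *Actb* and *B2m*, and *Kit* alone among them lay above *Hprt*. The interval of *Neurod1*, set as a closed control, at 2.99% (2.42 to 3.65%), overlapped that of *Slamf1* and lay above those of *Cd48* and *Ly6a*. From 250 bp before to 50 bp after the start, the order of the 5 genes was the same. The shares were then 21.8% for *Kit*, 2.86% for *Cd34*, 2.03% for *Slamf1*, 1.13% for *Cd48* and 0.483% for *Ly6a*. *Cd34* and *Slamf1* thus lay closer together in the narrower window.

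**Figure D1:**
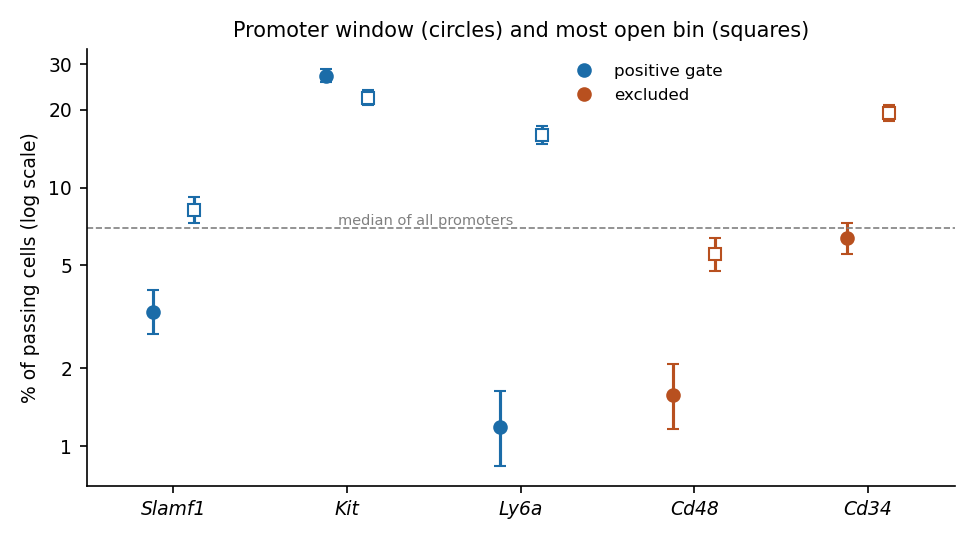
Percent of the 3108 passing cells (y axis, log scale) with a cut site within 500 bp of the principal start (filled circles) and in the most open 500-bp bin of the window (open squares), for 3 positive-gate genes (blue) and 2 excluded genes (orange). Bars are exact binomial 95% intervals, the dashed line is the median of 21755 promoters (6.98%), and *Ly6a* is the lowest by its promoter at 1.19% and rises to 16.02% by its most open bin, and *Cd34* goes from 6.37% to 19.4%.

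The order of the promoters was the same in shallow and deep cells. When the cells were divided into 3 groups of 1036 by their number of fragments, *Kit* was cut in 18.9%, 27.4% and 35.0% of cells from the shallowest to the deepest group. *Cd34* followed with 4.44%, 5.70% and 8.98%, and *Slamf1* with 1.83%, 3.09% and 5.02%. *Cd48* and *Ly6a* stayed lowest, at 2.51% and 1.93% in the deepest group. The share of cells thus rose with depth at each of the 5 genes. With each cell thinned to 3000 fragments, the shares were 8.43% for *Kit*, 1.54% for *Cd34*, 0.644% for *Slamf1*, 0.483% for *Cd48* and 0.354% for *Ly6a*.

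Cut sites marked the start of each gene to a different degree. At *Kit* they formed a pair of clusters, one across the start and a second inside intron 1. The stretch between 700 and 1000 bp after the start held 882 cut sites in 496 cells, or 15.96% (14.7 to 17.3%), beyond the reach of the promoter window. The *Kit* promoter site was the broadest open site of the 5 windows, at 2500 bp, and it was cut in 37.0% of cells. At *Cd34*, *Slamf1* and *Cd48* the largest cluster sat at the start, although that of *Cd48* did not reach the open level. At *Ly6a* no 100-bp step within 2 kb of the start held more than 13 cut sites. The 6 annotated starts of *Ly6a*, between 74997634 and 74998031 on chromosome 15, gave 1.06% to 1.38% of cells. Their windows overlap one another, so like values say little about the choice of transcript. The *Ly6a* share was 0.483% from 250 bp before to 50 bp after the principal start, and 1.64% with 1000 bp either side. In the bin that holds the principal start of *Ly6a*, 53.2% of the 32-base stretches are unique, and in the bin before it on the chromosome 14.6%. Reads from this promoter can thus be hard to place, although the paired ATAC reads of the paper were longer than 32 bases. The part of this in the low *Ly6a* share was not tested.

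**Figure D2:**
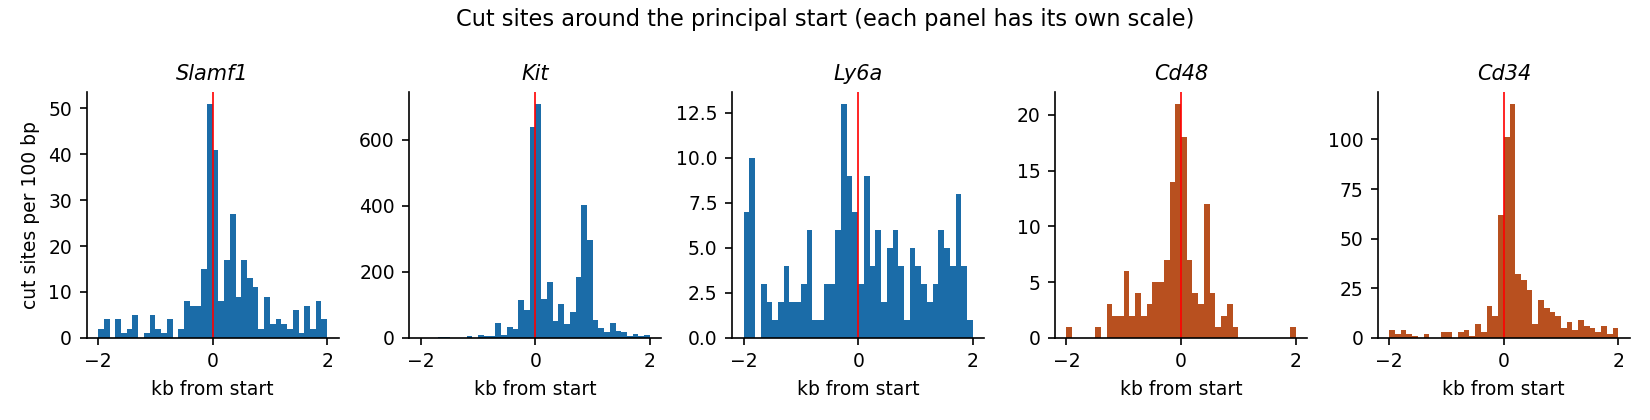
Cut sites of the 3108 passing cells per 100 bp (y axis, scaled per gene) from 2 kb before to 2 kb after the principal start (x axis, in kb along the direction of transcription; red line, start) for the positive-gate genes (blue) and the excluded genes (orange). *Kit* has a second cluster between 700 and 1000 bp after the start, and *Ly6a* has no step above 13 cut sites.

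Each gene was then read with 50 kb on either side, since regulatory elements often lie outside the promoter. *Cd48* and *Slamf1* are neighbors on chromosome 1, and the bins between them were given to the nearer gene body, with the border at 171736000. The 5 windows held 27 open sites, made of 45 open bins out of 1252, or 3.59% against 1.95% of all bins. The positive-gate genes had 21 of these sites, with 4.51% of their 799 bins open. The excluded genes had 6, with 1.99% of their 453 bins open. Only 3 of the 27 sites were promoters of the members, 1 was the promoter of another protein-coding gene, 7 were internal to a member and 16 were distal. *Slamf1* had 10 sites, *Kit* 6, *Ly6a* 5, *Cd34* 4 and *Cd48* 2. By open bins, *Slamf1* stood at 6.09%, *Ly6a* at 5.34%, *Kit* at 3.03%, *Cd34* at 2.86% and *Cd48* at 0.962%, the last below the genome-wide 1.95%.

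*Slamf1* (chr1:171767127-171801184, plus strand) had the most open sites of the 5 members at the 2% level, but not at other levels. At 1% *Kit* had 16, *Ly6a* 12 and *Slamf1* 11, at 5% *Ly6a* had 4 and *Slamf1* 2, and with thinned cells *Ly6a* had 2 and *Slamf1* 1. Its strongest site lay in intron 1, at chr1:171772501-171774000, with a summit 6.25 kb after the start, and was cut in 346 cells, or 11.1% (10.1 to 12.3%). The promoter site itself was cut in 2.90%. A distal site past the end of the gene, at chr1:171815501-171816500 and 48.8 kb from the start, was cut in 9.20% of cells. Another lay 5.05 kb before the start and was cut in 5.89%. Of the 7 distal sites of the window, 2 lay inside the body of *Cd84*, another SLAM receptor gene, with 3.73% and 3.38% of cells, although the *Cd84* promoter was not open at 1.19%. Taken over all 10 sites, 37.4% of cells (35.7 to 39.1%) had a cut site in at least 1 of them.

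*Kit* (chr5:75574916-75656722, plus strand) had its largest open site around the start, with part of it in intron 1. This site held 3299 cut sites, of which 2046 were within 500 bp of the start, against 535 in 3 internal sites and 737 in 2 distal ones. The internal sites all lay in intron 1 and were cut in 2.32% to 4.31% of cells. The strongest distal site, at chr5:75695001-75696000, lay 120 kb from the start and past the end of the gene, and was cut in 7.79% of cells. The *Kit* body as a whole held 83.0 cut sites per kb against 47.2 in its flanks. A cut site in at least 1 of its 6 sites was found in 47.7% of cells (45.9 to 49.5%), the highest share of the 5 genes.

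*Ly6a* (chr15:74994877-74998031, minus strand) had a closed promoter by the 2% level and strong sites beyond its end. A site at chr15:74988001-74990000, with a summit 9.26 kb after the start and past the last exon, was cut in 630 cells, or 20.3% (18.9 to 21.7%). A second one, 29.6 kb after the start at chr15:74967501-74969000, was cut in 12.7%, and a smaller one 5.11 kb after the start in 5.12%. The nearer strong site overlaps the annotated starts of *Gm8000*, a pseudogene, and of *Gm37042*, an unclassified transcript, and 80.2% of the 32-base stretches of its top bin are unique. The site in *Ly6e*, a neighboring Ly6 gene, is that gene's own promoter site and was cut in 8.40% of cells. Across the *Ly6a* window 157 of 206 bins fell under 90% unique sequence and 30 bins had no cut site, so cut sites there can have been missed. In all, 40.1% of cells (38.3 to 41.8%) had a cut site in at least 1 of its 5 sites.

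Among the excluded genes, *Cd48* (chr1:171682009-171705258, plus strand) had the lowest density of cut sites, the smallest share of open bins and the fewest open sites of the 5 windows. Its 2 sites were an internal one at chr1:171699001-171699500, cut in 172 cells, or 5.53% (4.76 to 6.40%), and a distal one 21.4 kb before the start with 2.93%. The internal bin overlaps 117 bp of exon 3, but its summit lies in the intron before it. Fragments there were short, with 70.6% shorter than the DNA wrapped around a nucleosome, against 45.6% in the library as a whole. Either *Cd48* site was cut in 8.24% of cells (7.29 to 9.26%), the lowest share of the 5 genes.

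*Cd34* (chr1:194938819-194961279, plus strand) had an open promoter and 1 site that was stronger than all else in its window. This site, at chr1:194976001-194977500 and 37.5 kb after the start, was cut in 809 cells, or 26.0% (24.5 to 27.6%), and held 2187 cut sites. Its summit lies 49 bp from the annotated start of the noncoding gene *A330023F24Rik*, and it reaches that of the antisense transcript *Gm16897*. It was counted as distal because only protein-coding starts entered the classes, and its part in the *Cd34* gene was not tested. The promoter site of *Cd34* was cut in 6.44% of cells, a site just past the end of the gene in 4.25% and one in intron 1 in 2.86%. Over all 4 sites, 35.2% of cells (33.5 to 36.9%) had a cut site.

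The strongest bins were compared with all open bins of the genome, whose median was 4.47% of cells. The *Kit* bin at 22.3% stood at the 92.2nd percentile of these, the *Cd34* bin at 19.4% at the 90.5th, and the *Ly6a* bin at 16.02% at the 87.7th. The *Slamf1* bin was at the 73.0th and the *Cd48* bin at the 59.4th. In *Ly6a* the strongest bin was cut in 13.5 times as many cells as the promoter window, and in *Cd48*, *Cd34* and *Slamf1* in 3.51, 3.05 and 2.48 times as many. In *Kit* this ratio was 0.821, and it could not exceed 1, because its strongest bin lies inside its promoter window. Each strongest bin was picked as the highest of a window of 206 to 363 bins, whereas the open bins were ranked singly. This choice raises both the percentiles and the ratios to the promoter window. They therefore do not show whether these bins are unusually open for windows of this size.

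The positive-gate and excluded genes were set against each other by 3 measures, each a log2 ratio of the mean over 3 genes to the mean over 2 genes. By promoters, the means were 10.5% and 3.97% of cells, a log2 ratio of 1.41 (1.22 to 1.60). This value rests on *Kit*: without it the ratio was −0.82 (−1.11 to −0.53), so that *Slamf1* and *Ly6a* together were less open at their promoters than *Cd48* and *Cd34*. Leaving out *Cd34* raised it to 2.74 and leaving out *Cd48* lowered it to 0.73. These comparisons without a gene were chosen after seeing the data.

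By the whole window, the means were 56.3 and 31.0 cut sites per kb, a log2 ratio of 0.86 (0.81 to 0.92). Here each positive-gate gene lay above each excluded gene, with 63.3 cut sites per kb for *Kit*, 57.5 for *Ly6a* and 48.1 for *Slamf1*, against 43.4 for *Cd34* and 18.6 for *Cd48*. Over the whole genome the mean was 28.2, so that *Cd48* alone fell below it. The order among the positive-gate genes depended on the bins used. *Ly6a* was highest with 10-kb flanks, at 109.1 against 88.6 for *Kit*. It was also highest in bins with at least 90% unique sequence, at 108.6 against 70.1 for *Kit*. The ratio kept its sign without each gene in turn, and ranged from 0.37 without *Cd48* to 1.60 without *Cd34*. With bins at the annotated starts of genes of any type left out, a comparison also chosen after seeing the data, the density was 21.0 for *Cd34* and 18.2 for *Cd48*, against 52.4 for *Kit*, 44.7 for *Slamf1* and 37.7 for *Ly6a*, a log2 ratio of 1.20.

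By the strongest bin, the means were 15.5% and 12.5% of cells, a log2 ratio of 0.31 (0.20 to 0.43). Among comparisons chosen after seeing the data, the ratio turned to −0.32 (−0.45 to −0.20) without *Cd48*, was −0.04 without *Kit* with an interval that spans 0 (−0.18 to 0.09), and rose to 0.62 without *Slamf1* and 1.49 without *Cd34*. It was 0.10 (−0.01 to 0.21) with bins shifted by 250 bp. When bins at any annotated start were left out, again after seeing the data, it was 1.34 (1.16 to 1.52), as the strongest remaining bin of *Cd34* was cut in 4.25% of cells and that of *Ly6a* in 11.7%. With 5 genes in all, no such ratio says how genes for present and absent proteins differ in general.

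In single cells, cut sites in more than 1 of these promoters were rare. Of the 3108 cells, 2173 had none in any of the 3 positive-gate promoters, 887 had them in 1 and 48 in 2. No cell had them in all 3, which allows up to 0.0965% of cells with such cut sites at this depth. This sets no limit on the share of cells with all 3 promoters open. In the excluded promoters, 2866 cells had none, 237 had them in 1 and 5 in both. Cells with cut sites at both *Kit* and *Cd34* numbered 72, and at both *Kit* and *Slamf1* 35. The products of the shares of both genes, taken within 10 groups of cells by depth and summed, came to 57.9 and 31.4 cells. Of the 10 pairs of genes, 4 were above this product and 6 below it. The other 2 above were *Kit* with *Ly6a*, at 13 cells against 11.5, and *Cd48* with *Cd34*, at 5 against 3.54. Below it were *Kit* with *Cd48*, at 12 against 15.1, *Slamf1* with *Cd34*, at 4 against 7.54, and 4 pairs with at most 1 cell each. Whether any pair differs from its product was not tested. The median was 13945.5 fragments in cells with 2 positive-gate promoters cut, against 11079 in those with none. For the excluded promoters it was 10614 in the 5 cells with both cut, 12657 in those with 1 and 11338.5 in those with none.

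The promoter sequences of 4 of the 5 members are shown because they differ in base composition as well as in openness. Each is a 300-base promoter entry from RefSeq (GRCm38.p6), 5′ to 3′ on the plus strand, at chr5:75574737-75575036 for *Kit*, chr1:171766882-171767181 for *Slamf1*, chr1:194938571-194938870 for *Cd34* and chr1:171681742-171682041 for *Cd48*. Capitals mark matches on either strand to 7 short motifs. Those of transcription factor families were GATAA for GATA factors, TGTGGT for RUNX factors, AGGAAG for ETS factors and CAGCTG for E-box proteins. Those of general promoters were GGGCGG, which SP factors bind, CCAAT, which the NF-Y complex binds, and TATAAA, which the TBP protein binds.
Kit promoter: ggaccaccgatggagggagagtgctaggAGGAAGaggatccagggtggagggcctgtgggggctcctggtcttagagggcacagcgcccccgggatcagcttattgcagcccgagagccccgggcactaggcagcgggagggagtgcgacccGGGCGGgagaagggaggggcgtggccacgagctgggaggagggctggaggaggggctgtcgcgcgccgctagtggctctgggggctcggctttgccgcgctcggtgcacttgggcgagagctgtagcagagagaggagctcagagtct
Slamf1 promoter: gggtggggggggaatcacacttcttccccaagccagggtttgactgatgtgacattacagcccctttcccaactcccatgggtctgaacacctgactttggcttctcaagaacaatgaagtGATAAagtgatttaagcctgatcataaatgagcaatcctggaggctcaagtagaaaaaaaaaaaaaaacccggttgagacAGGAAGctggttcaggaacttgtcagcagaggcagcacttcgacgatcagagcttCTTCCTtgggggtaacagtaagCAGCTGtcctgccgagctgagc
Cd34 promoter: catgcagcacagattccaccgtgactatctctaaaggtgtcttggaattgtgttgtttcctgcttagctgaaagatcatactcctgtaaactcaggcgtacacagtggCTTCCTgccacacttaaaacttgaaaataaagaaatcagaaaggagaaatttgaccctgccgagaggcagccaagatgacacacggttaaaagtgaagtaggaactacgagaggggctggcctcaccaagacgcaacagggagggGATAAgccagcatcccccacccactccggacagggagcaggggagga
Cd48 promoter: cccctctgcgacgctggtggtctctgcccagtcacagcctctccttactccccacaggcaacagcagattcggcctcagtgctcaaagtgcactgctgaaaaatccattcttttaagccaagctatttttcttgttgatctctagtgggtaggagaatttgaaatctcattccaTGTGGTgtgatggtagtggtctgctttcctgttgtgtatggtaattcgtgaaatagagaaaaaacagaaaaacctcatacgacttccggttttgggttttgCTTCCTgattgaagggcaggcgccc

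The *Kit* promoter had 69.0% G and C and 20 CpG dinucleotides, and the other 3 had 47.3% to 50.0% and 4 to 7 CpGs, around a median of 52.7% over 32851 promoters. *Kit* was at the 65.7th percentile of promoters by observed over expected CpG, *Cd48* at the 52.5th, *Cd34* at the 49.1st and *Slamf1* at the 32.1st. Openness rose with this measure over 5 groups of genes, from 10.7% of promoters open in the lowest to 96.4% in the highest. Among the 3287 genes with ratios from 0.187 to 0.446, which include *Slamf1*, *Cd48* and *Cd34*, 36.5% of promoters were open with a median of 0.644% of cells. Among the 3287 genes with ratios from 0.446 to 0.711, which include *Kit*, 82.0% were open with a median of 10.6%. *Kit*, *Cd34*, *Slamf1* and *Cd48* were each above the median of their own group, a description of 4 genes and not a test. The groups are wide, and the ratios of *Cd48* (0.417) and *Cd34* (0.374) lay nearer the upper edge of theirs. The median of the next group, 10.6%, was above *Cd34*, *Slamf1* and *Cd48*. How these genes stand against promoters of closely matched CpG content was not tested. The AGGAAG motif was found in all 4 promoters, with 2 matches in *Slamf1* and 1 in each other, and in 35.4% of all promoters. GATAA was found once each in *Slamf1* and *Cd34* and in 25.4% of all promoters, GGGCGG in *Kit* alone and in 35.7% of all, CAGCTG in *Slamf1* alone and in 16.3% of all, and TGTGGT in *Cd48* alone and in 16.8% of all. CCAAT and TATAAA were in none of the 4, and in 37.4% and 13.6% of all promoters.

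The most open bin lay outside the promoter in 4 of the 5 genes, and for *Slamf1*, *Cd48* and *Cd34* 300 bases of it are shown, read from the GRCm38 genome on the plus strand at chr1:171773201-171773500, chr1:171699026-171699325 and chr1:194976176-194976475. Capitals mark the same motifs.
Slamf1 intron 1 bin: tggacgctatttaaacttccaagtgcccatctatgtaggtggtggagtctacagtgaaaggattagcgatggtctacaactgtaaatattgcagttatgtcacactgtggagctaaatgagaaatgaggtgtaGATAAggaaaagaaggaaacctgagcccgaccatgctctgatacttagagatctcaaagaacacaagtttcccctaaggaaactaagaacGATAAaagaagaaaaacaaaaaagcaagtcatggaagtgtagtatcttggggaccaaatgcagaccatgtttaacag
Cd48 internal bin: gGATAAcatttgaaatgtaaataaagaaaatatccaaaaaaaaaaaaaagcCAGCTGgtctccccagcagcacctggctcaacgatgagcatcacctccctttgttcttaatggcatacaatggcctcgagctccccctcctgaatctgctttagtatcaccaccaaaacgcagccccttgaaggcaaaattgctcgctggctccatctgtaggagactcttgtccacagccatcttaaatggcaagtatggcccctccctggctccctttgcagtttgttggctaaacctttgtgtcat
Cd34 distal bin: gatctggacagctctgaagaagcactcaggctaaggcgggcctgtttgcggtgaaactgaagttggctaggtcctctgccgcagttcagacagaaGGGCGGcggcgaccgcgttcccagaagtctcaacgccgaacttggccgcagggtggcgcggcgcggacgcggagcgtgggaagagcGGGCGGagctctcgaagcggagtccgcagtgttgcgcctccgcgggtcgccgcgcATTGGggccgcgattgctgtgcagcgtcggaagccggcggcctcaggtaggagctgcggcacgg

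The *Slamf1* bin in intron 1 had 40.3% G and C and 2 matches to GATAA, which 24.9% of 102524 open bins hold in their central 300 bases. The *Cd48* bin had 46.7% G and C, with 1 match each to GATAA and CAGCTG. The *Cd34* bin had 67.7% G and C, 37 CpGs and an observed over expected CpG ratio of 1.11, above the 0.621 of the *Kit* promoter, with 2 matches to GGGCGG and 1 to CCAAT. Those motifs were held by 23.9% and 28.9% of open bins. A match here is a string of letters, and no binding was measured.

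The families of the 5 genes were read at their promoters for comparison. Of 9 SLAM family promoters, 4 were open, with a median of 1.58% of cells; *Slamf1* at 3.31% was exceeded by *Ly9* at 3.41%, with overlapping intervals, and the lowest was *Slamf7* at 0.129%. Of 12 Ly6 family promoters on chromosome 15, 2 were open, *Ly6e* at 5.86% and *Lynx1* at 3.96%, and *Ly6a* stood above the median of 0.418%. In the group of class III receptor tyrosine kinases and their neighbors 5 of 6 were open, led by *Kit*, with *Flt3* at 20.3%, *Kdr* at 9.52% and *Csf1r* below the open level at 1.64%. All 3 members of the CD34 family were open, and *Podxl*, which encodes a related sialomucin, was cut in 14.3% of cells against 6.37% for *Cd34*. Among genes for common targets of lineage antibodies, *Ptprc* was open at 8.69%, while *Cd4*, *Cd5*, *Cd8a*, *Cd8b1* and *Itgam* were all under the open level. Among ligands and partners 2 of 8 were open, *Fyn*, a kinase that acts in SLAM signaling, at 24.1% and *Kitl*, which encodes the c-Kit ligand, at 6.95%. Counts in these lists are to be read against 62.5% of all promoters.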

How the data were processed

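The authors made the files with Cell Ranger ARC 2.0.2 and the 10x mm10 reference (2020-A), which maps reads, reduces duplicates to 1 fragment and uses both ATAC and RNA to call cells. These authors deposited the position of each fragment and, per barcode, counts of fragments in peaks and of RNA UMIs, none of them normalized. No fragment ended past the GRCm38 length of its chromosome, for 20 chromosomes checked. Both ends of each fragment were counted as cut sites. Doublets were kept. Shares of cells have exact binomial (Clopper-Pearson) 95% intervals, and log2 ratios have normal ones, with the variance of cut sites doubled because each fragment gives 2. Uniqueness is the share of 32-base stretches found once in GRCm38. The members and lists were chosen with earlier results of these data known. The genes named are the members, the other protein-coding genes with a start in a window, and the genes of the lists, of which some are not reported here; the sites named are the promoter and the 3 with the most cells in each window, with a few added after their values were seen. Promoter sequences are the 300-base RefSeq entries, where the plan had 300 bases centered on the principal start. No test was made, since genes and cells are not replicates. Alternatives varied the cells, the promoter window, the flank, the bins and the open level. The antibody tags and RNA counts per gene were not used here. Steps were tested on simulated data. Software versions were numba 0.67.0, scipy 1.17.1, numpy 2.4.6, pandas 2.3.3 and matplotlib 3.10.9, all under Python 3.11.15.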

Additional observations from a re-analysis of the deposited data

Results flagged for a closer look

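Barcodes that were not called as cells, which the comparisons leave out, also held cut sites in 4 of the 5 promoters, above the 3 counts that a count of 0 allows. There were 111 at *Kit*, 25 at *Cd34*, 19 at *Slamf1* and 12 at *Cd48*, and none at *Ly6a*. Per 1000000 fragments, these came to 31.5 for *Kit* against 55.1 in passing cells, and to 7.09 against 10.9 for *Cd34*. *Slamf1* had 5.39 against 5.12 and *Cd48* 3.40 against 2.59. The 95% Poisson intervals of the barcode groups overlapped for *Cd34*, *Slamf1* and *Cd48*, and not for *Kit*. At *Actb* the values were 66.1 and 116. *Ly6a* had 1.67 (1.28 to 2.14) in passing cells. Its 0 in the other barcodes allows up to 0.851 by the limit of 3 counts and up to 1.05 by the Poisson interval. These limits and intervals take cut sites as separate counts, although 1 fragment can give 2, so they are too narrow. Whether *Ly6a* differs between the barcode groups was not tested. What these barcodes hold was not tested.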

How the results depend on the processing

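The promoter ratio stayed at 1.40 to 1.55 with all called cells, deeper cells, cells of at most 2 times the median fragments, or any annotated start. Counting fragments that overlap the window gave the same 1.41, which is no sign of stability, since only a fragment that spans the whole window could change it. The ratio was 1.63 with 1000 bp either side, 2.02 from 250 bp before to 50 bp after the start, and 1.63 with thinned cells. Among comparisons chosen after seeing the data it was 0.58 with a geometric mean, 1.83 without *Slamf1*, 1.94 without *Ly6a*, 0.73 without *Cd48*, 2.74 without *Cd34* and −0.82 without *Kit*.

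The window ratio of 0.86 was 0.87, 0.81 and 0.86 with all called cells, without promoters of other genes and by midpoints. It was 1.38 with 10-kb flanks, 0.97 in gene bodies and 1.10 in bins with at least 90% unique sequence. Added after seeing the data, it was 1.20 without bins at annotated starts, 0.98 by geometric mean, 0.96 without *Slamf1*, 0.77 without *Kit*, 0.37 without *Cd48* and 1.60 without *Cd34*.

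The ratio of strongest bins, 0.31, was 0.32 with all called cells, 0.29 with thinned cells, 0.21 with bins of 1000 bp and 0.10 with shifted bins. Of the comparisons chosen after seeing the data, it was 1.34 without bins at annotated starts, 0.47 by geometric mean, 0.62 without *Slamf1* and 0.29 without *Ly6a*. Also after seeing the data, it was 1.49 without *Cd34*, −0.04 (−0.18 to 0.09) without *Kit* and −0.32 (−0.45 to −0.20) without *Cd48*. The 27 open sites became 51 at a level of 1% of cells, 11 at 5% and, in a comparison added after seeing the data, 5 with thinned cells. Of 115 single-gene values under alternatives, 65 left their counting interval or a band of 1.5 times. This count is no measure of stability, since midpoints and thinned cells lower the values of all 5 genes by construction. Other causes were not tested. Depth limits what can be said of weak sites, since a share of 2% rests on as few as 63 cells. No paired analysis was possible because there is 1 library.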

Other observations

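The promoters were also read by RNA content. In 3 groups of 1036 cells with median UMIs of 2889, 3860 and 5154, *Kit* was cut in 23.5%, 26.7% and 31.2% of cells, *Cd34* in 4.92%, 7.05% and 7.14%, and *Slamf1* in 3.09%, 2.70% and 4.15%. *Ly6a* was cut in 0.869%, 0.869% and 1.83%, and *Cd48* in 1.06%, 1.74% and 1.93%. Median fragments per cell rose alongside, from 10739 to 12693, and their part in these shares was not tested.

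Fragment lengths differed among the open sites. At the *Kit* promoter site 59.0% of fragments were shorter than the DNA wrapped around a nucleosome, against 40.6% at that of *Slamf1* and 49.1% at that of *Cd34*. The highest share among the 27 sites was 70.6%, at the internal *Cd48* site, and the lowest was 27.4%, at a *Kit* site in intron 1 with 73 fragments.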
